A study of Mus musculus with 2 samples.

Results

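The genes described here are 38 genes of the ATF4 stress programme and of cytosolic tRNA charging, out of 34745 gene models measured. They were chosen by gene name: 18 are ATF4, related factors and target genes, among them the enzymes of serine, asparagine and proline synthesis, and 20 encode cytosolic aminoacyl-tRNA synthetases. Each symbol matched exactly 1 gene model. RNA-seq was done on cells expressing PML/RARa, the fusion protein of acute promyelocytic leukaemia, in a form labelled 2KR (1 library) or in the wild-type form, WT (1 library). Both libraries came from C57BL/6 mouse marrow, after 5-fluorouracil treatment of the animals and enrichment for stem and progenitor cells. The cells were infected with lentivirus in 6 µg/ml polybrene, kept for 24 h before fresh medium was given, and sorted for transduction. The medium, shared by both, held SCF at 50 ng/ml, IL-3 and IL-6 at 10 ng/ml each, hydrocortisone, 20% serum and 2 mM added L-glutamine. The number of animals pooled, their age and the promoter that drove the fusion are not given by the labels, and the arm with the pMSCV vector was not analysed here.

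ATF4 is a basic leucine zipper transcription factor made when the translation factor eIF2 is phosphorylated by one of 4 kinases, which sense amino acid shortage, endoplasmic reticulum stress, double-stranded RNA or lack of heme. Its control is mainly translational, so the level of its mRNA need not follow its activity. Its known targets import and make amino acids, charge them onto tRNA, and, in prolonged stress, promote cell death or restore translation. Aminoacyl-tRNA synthetases join each amino acid to its tRNA and are needed by every cell that makes protein, and growing blood progenitors use them heavily.

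The 2KR library held 20462011 counts and the WT library 17606168. With 1 library per form there is no replicate check and no p-value was computed, so each difference below is one between these 2 libraries. Levels are CPM, counts relative to the library total after TMM scaling, and each fold is the ratio of CPM, 2KR over WT, followed by its exact 95% interval for counting error alone. The 10 progenitor markers summed to 3679.7 CPM in 2KR and 3584.5 in WT. Their list split, with 4 intervals above 1 and 4 below. Kit had 1158.5 CPM in 2KR and 1358.6 in WT, and Myb 851.3 and 613.4. The 9 mast cell and basophil markers summed to 3347.5 CPM in 2KR and 6419.0 in WT, with 6 of 9 intervals below 1, 1 above (Mcpt8, 449.8 CPM in 2KR and 190.1 in WT) and Fcer1a at 0 in both. The 8 granulocyte markers summed to 525.9 CPM in 2KR and 231.2 in WT, mostly from Ctsg (486.7 and 212.1). Of these 8, 2 had the interval above 1 (Ctsg and Mpo) and 6 held 1. The 8 monocyte and macrophage markers summed to 114.9 CPM in 2KR and 254.9 in WT. The monocyte list split, with 3 intervals below 1 (Ccr2, Cx3cr1 and Cd68) and 3 above (Ly6c2, Adgre1 and Cd14), and its sum followed Ccr2 (56.2 CPM in 2KR and 118.2 in WT) and Cx3cr1 (20.7 and 101.3). The 5 megakaryocyte markers summed to 1358.5 CPM in 2KR and 1038.5 in WT, and the 6 erythroid markers to 23.4 and 15.2, with Hbb-bs at 0 in both. Of the 6 erythroid intervals, 1 lay above 1 (Hba-a1), 1 below (Hbb-bt) and 4 held 1. The 6 stromal and endothelial markers summed to 1130.6 and 1098.7 CPM, nearly all from Pecam1 and Pdgfrb. The 4 B cell markers held 12 counts in 2KR and 1 in WT, with Pax5 at 0 in both, and the 5 T and NK cell markers 2 and 8 counts, with Cd3e and Ncr1 at 0 in both. The part of these marker differences in the results below was not tested, and in bulk RNA a change in the share of a cell type cannot be told apart from a change in RNA per cell.

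Most of the 38 genes were higher in the 2KR library, by small amounts for the synthetases and by large amounts for a few biosynthetic and stress genes. The fold was above 1 for 34 of the 38, Atf3 among them, against 52.3% of the 12466 gene models whose mean CPM was 1 or more. The counting interval lay wholly above 1 for 32 of the 38, against 31.6% of these models. It lay wholly below 1 for 2, Atf4 and Ppp1r15a, against 28.5%. Of the 38, 28 had a mean of 30 CPM or more, and 38.2% of all models at that level had the interval above 1. By the size rule, a log2 ratio of CPM + 1 of at least 1 in size, 4 were higher and 1 lower in 2KR, while 2.66% of all models were higher and 4.56% lower, 7.22% in all. The 4 were Asns, Pycr1, Stc2 and Chac1, and the 1 was Ppp1r15a, which stayed past the rule under every alternative run. With a pseudocount of 5 in place of 1, Stc2 (log2 ratio 0.86) and Chac1 (0.59) miss the rule, as they do on FPKM + 1 (0.64 and 0.99). Asns and Pycr1 stay past it with smaller ratios, 1.09 and 1.38 with the pseudocount of 5 and 1.30 and 1.43 on FPKM + 1. With a mean of 5 CPM or more required, Asns and Chac1 drop out, and at 30 CPM none of the 4 is left. Atf3 was the only gene of the 38 below the filter, and Asns, at 0.801 CPM in WT, passed it through its level in 2KR. The 37 that passed had a median log2 ratio of 0.30, beside 0.02 over all models, whose quartiles were -0.21 and 0.23.

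**Figure D1:**
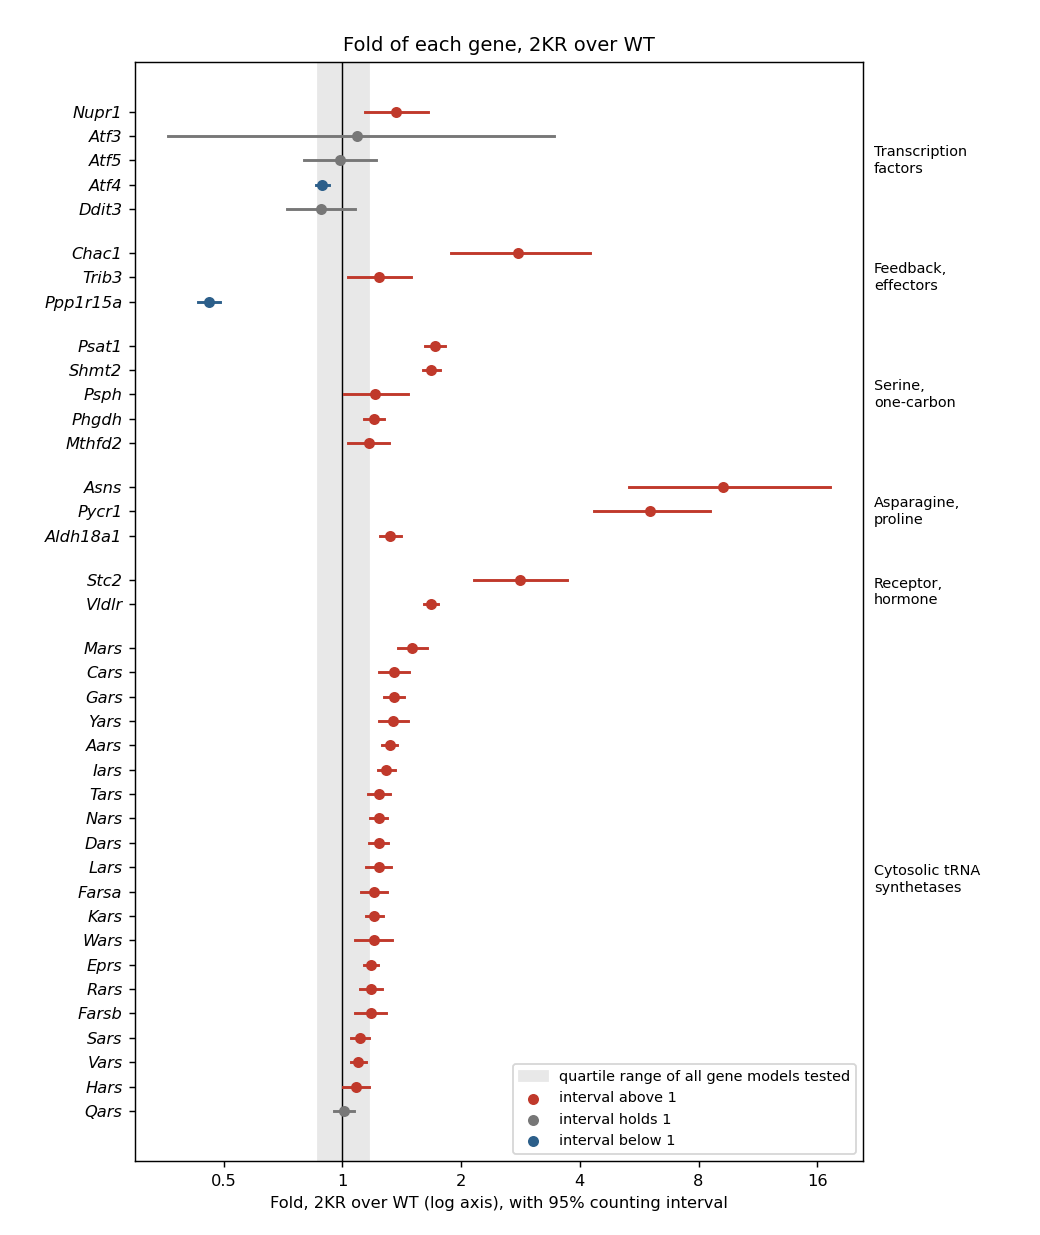
Fold of each of the 38 genes, 2KR over WT, on a log2-spaced axis, with 1 library per form; points are folds of CPM, bars are 95% counting intervals, and the grey band spans the quartiles of all gene models tested. Asns (9.21) and Pycr1 (6.02) stand far to the right, Ppp1r15a (0.458) to the left, and the 20 synthetases lie between 1.01 and 1.5.

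**Figure D2:**
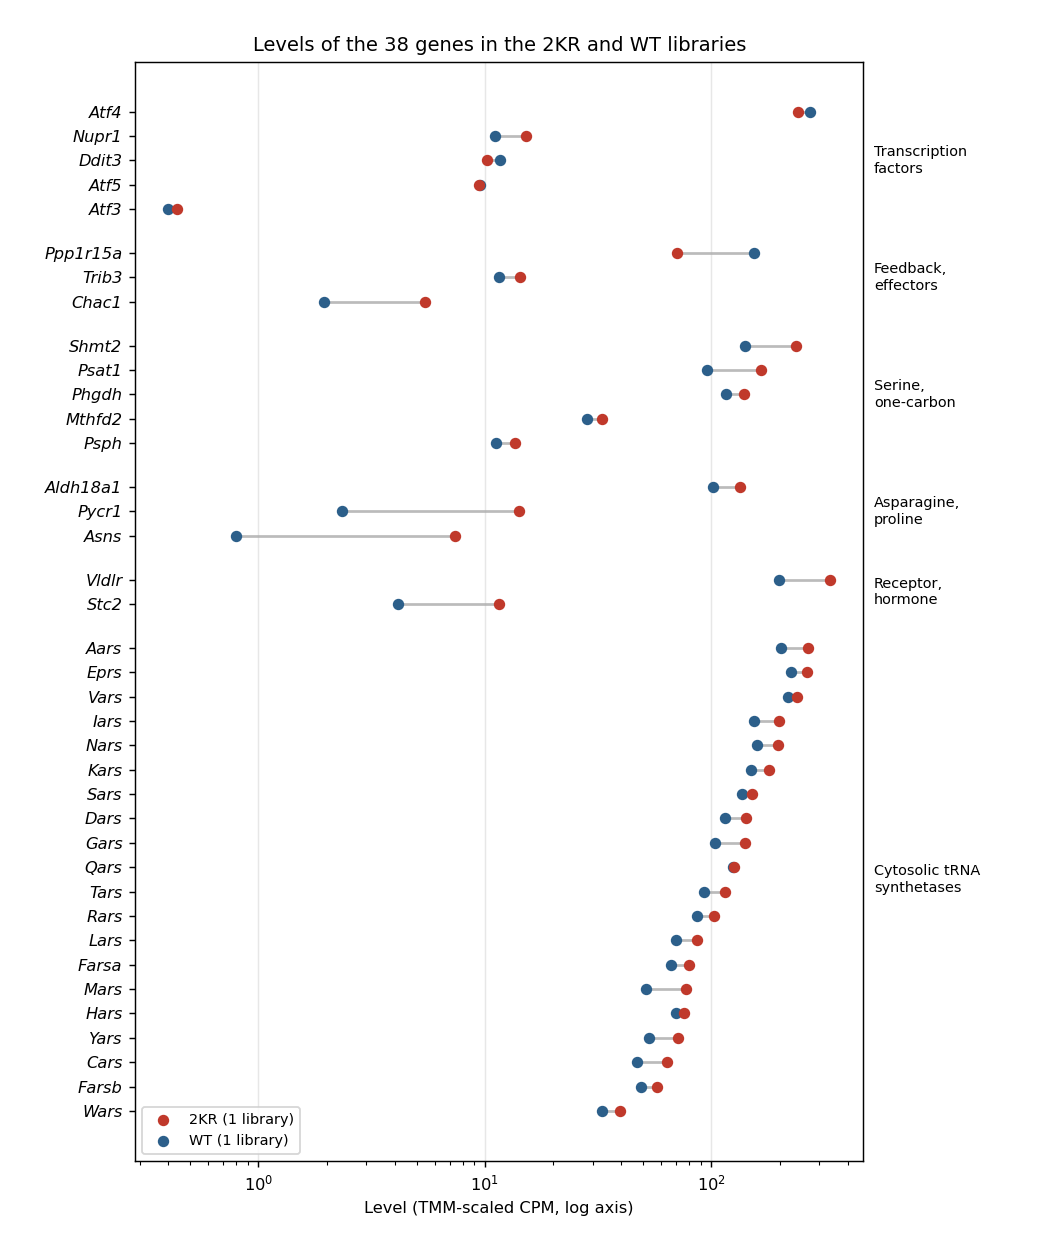
Level of each gene in the 2KR library (red) and the WT library (blue) in CPM on a log axis, with a grey line joining the 2 values and 1 library per form. The synthetases lie between 39.6 and 266.9 CPM in 2KR and between 32.9 and 224.3 in WT, while Asns, Chac1, Pycr1 and Stc2 are low in WT, between 0.801 and 4.12 CPM.

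ATF4 and the C/EBP factors bind a shared DNA element, the C/EBP-ATF response element, through which Asns and other targets are known to be induced. Its core was searched as TGATGNAA, or TTNCATCA when read on the opposite strand, in the RefSeq promoters of GRCm38.p6, which run from 250 bases before to 50 bases after each start. Promoters were matched for 31 of the 38 genes; Cars, Hars, Lars, Nars, Rars, Vars and Wars were not matched. The core was present in 12 of the 31, or 38.7%, against 4.51% of all 27025 genes counted the same way, by any of their promoters, and 3.97% of the 32851 single promoters of this length. It was held by 7 of the 18 programme genes and by 5 of the 13 matched synthetases. The genes were chosen as ATF4 targets, so this share describes the choice and is no result of the libraries, and a match is no proof of binding. The following 12 stretches of 30 bases are shown because they carry the feature that these genes share; capitals mark the core, and all run 5′ to 3′ on the strand of the gene.
Asns, chr6:7693214-7693243, minus strand: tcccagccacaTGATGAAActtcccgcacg
Pycr1, chr11:120643833-120643862, minus strand: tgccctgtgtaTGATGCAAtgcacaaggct
Chac1, chr2:119351038-119351067, plus strand: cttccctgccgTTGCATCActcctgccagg
Vldlr, chr19:27216809-27216838, plus strand: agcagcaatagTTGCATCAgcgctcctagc
Nupr1, chr7:126625562-126625591, minus strand: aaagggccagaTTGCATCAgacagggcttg
Trib3, chr2:152344028-152344057, minus strand: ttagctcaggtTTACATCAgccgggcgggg
Atf3, chr1:191183425-191183454, minus strand: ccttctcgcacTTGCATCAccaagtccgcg
Aars, chr8:111033840-111033869, plus strand: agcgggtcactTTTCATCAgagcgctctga
Gars, chr6:55037960-55037989, plus strand: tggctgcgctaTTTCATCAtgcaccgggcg
Iars, chr13:49682126-49682155, plus strand: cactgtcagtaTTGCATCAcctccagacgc
Tars, chr15:11399655-11399684, minus strand: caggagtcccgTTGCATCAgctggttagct
Yars, chr4:129189895-129189924, plus strand: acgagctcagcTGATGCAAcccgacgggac
Counted from the start site, the core begins at position -23 in Asns, -103 in Pycr1, -193 in Chac1 and -200 in Vldlr.

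The transcription factors of the programme were not higher as a group. Atf4 (ENSMUSG00000042406, chromosome 15, 80255184 to 80257540 in GRCm38) had 241.3 CPM in 2KR and 271.2 in WT, a fold of 0.890 (0.855 to 0.926). Ddit3, which encodes the pro-apoptotic factor CHOP, had 10.2 CPM in 2KR and 11.6 in WT, a fold of 0.882 (0.724 to 1.07). Atf5, a relative of ATF4 that is also under translational control, had 9.42 and 9.55 CPM, a fold of 0.986 (0.797 to 1.22). The counting intervals of Ddit3 and Atf5 hold 1. Atf3, an early stress-induced factor, was nearly absent, with 9 counts in 2KR and 7 in WT. Nupr1, a small chromatin protein induced in stress, was the member of this group above 1 beyond counting error, with 15.2 CPM in 2KR and 11.1 in WT, a fold of 1.37 (1.14 to 1.65). Per length, Atf4 was by far the most abundant of the 5, at 140.9 FPKM in 2KR and 156.2 in WT, where the other 4 lay between 0.172 and 4.48 FPKM in 2KR and between 0.155 and 5.01 in WT.

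The 3 genes that act downstream to restrain or extend the response went different ways. Ppp1r15a (ENSMUSG00000040435, chromosome 7, 45522916 to 45526268) encodes GADD34, the inducible partner of the phosphatase that dephosphorylates eIF2. It had 70.3 CPM in 2KR and 153.6 in WT, and was 2.19-fold lower in 2KR (2.05 to 2.33). By log2 ratio of CPM + 1 it ranked 474 from the lowest of 12466 models. Its constitutive relative Ppp1r15b had 195.0 CPM in 2KR and 170.9 in WT, a fold of 1.14 (1.09 to 1.2). Per length, the Ppp1r15a level was 0.401 of that of Ppp1r15b in 2KR and 1.001 of it in WT. Trib3, a pseudokinase that restrains ATF4 and CHOP, had 14.3 CPM in 2KR and 11.5 in WT, a fold of 1.24 (1.03 to 1.49). Chac1 (ENSMUSG00000027313, chromosome 2, 119351229 to 119354381), an enzyme that degrades glutathione, had 5.44 CPM in 2KR and 1.94 in WT. That is 112 counts and 34 counts, a fold of 2.80 (1.89 to 4.23). Chac1 and Ppp1r15a, both known as targets of ATF4, thus lay on opposite sides of the 2-fold rule.

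The genes of asparagine and proline synthesis held the largest folds of the 38. Asns (ENSMUSG00000029752, chromosome 6, 7675169 to 7693254), which makes asparagine from aspartate and glutamine, had 152 counts in 2KR and 14 in WT, or 7.38 and 0.801 CPM. Its fold was 9.21 (5.32 to 17.3), and by log2 ratio of CPM + 1 it ranked 35 from the highest of 12466 models. Pycr1 (ENSMUSG00000025140, chromosome 11, 120635712 to 120643769), the mitochondrial reductase that completes proline synthesis, had 291 counts in 2KR and 41 in WT, or 14.1 and 2.35 CPM. Its fold was 6.02 (4.33 to 8.57), and it ranked 39 by the same log2 ratio. Both genes were read at a low level in either library, and both carry the core shown above. Aldh18a1, which encodes the first enzyme of proline synthesis from glutamate, had 134.3 CPM in 2KR and 101.6 in WT, a fold of 1.32 (1.25 to 1.40). Pycrl, which encodes a cytosolic relative of this reductase, had 34.1 CPM in 2KR and 25.3 in WT, a fold of 1.35 (1.2 to 1.52), whose interval lies below that of Pycr1. Per length, Pycrl exceeded Pycr1 8.40-fold in 2KR and 37.5-fold in WT.

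All 5 genes of serine synthesis and mitochondrial one-carbon metabolism had the counting interval above 1, against 31.6% of all tested models. None of the 5 reached 2-fold, where 7.22% of all tested models did. Serine is made from a glycolytic intermediate by PHGDH, PSAT1 and PSPH in turn. Phgdh, the first step, had 139.6 CPM in 2KR and 116.2 in WT, a fold of 1.2 (1.13 to 1.27). Psat1 (ENSMUSG00000024640, chromosome 19, 15904678 to 15947337), the aminotransferase of the middle step, had 165.1 CPM in 2KR and 96.1 in WT, a fold of 1.72 (1.62 to 1.82). Psph, the last step, had 13.6 CPM in 2KR and 11.2 in WT, a fold of 1.21 (1.01 to 1.46). The fold was thus larger for the aminotransferase than for the steps before and after it, with intervals that do not overlap. Shmt2, which turns serine into glycine in mitochondria and passes a carbon to folate, had 236.2 CPM in 2KR and 140.5 in WT, a fold of 1.68 (1.6 to 1.77). Mthfd2, the next enzyme on that carbon's route, had 32.8 CPM in 2KR and 28.1 in WT, a fold of 1.16 (1.03 to 1.31). Of 15 further genes of serine, glycine, folate and proline metabolism, 7 had the interval above 1 and 5 below. All tested models had 31.6% above and 28.5% below. The median log2 ratio of the 15 was 0.13. Shmt1, the cytosolic relative of Shmt2, had a fold of 1.38 (1.28 to 1.49), and Sfxn1, a mitochondrial serine carrier, had a fold of 1.10 (1.04 to 1.16). Gldc, the glycine-cleaving decarboxylase, was the only one of the 15 at 2-fold, against 7.22% of all tested models. It had 36 counts in 2KR and 164 in WT, 5.37-fold lower (3.72 to 7.93).

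The remaining programme genes encode a hormone and a surface receptor. Stc2 (ENSMUSG00000020303, chromosome 11, 31357307 to 31370074), the secreted glycoprotein stanniocalcin 2, had 11.6 CPM in 2KR and 4.12 in WT, a fold of 2.82 (2.16 to 3.72) from 239 and 72 counts. Vldlr, the receptor of very low density lipoprotein, had 334.3 CPM in 2KR and 199.1 in WT, a fold of 1.68 (1.61 to 1.75). Vldlr also carries the core shown above, and the searched window of Stc2 does not.

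**Figure D3:**
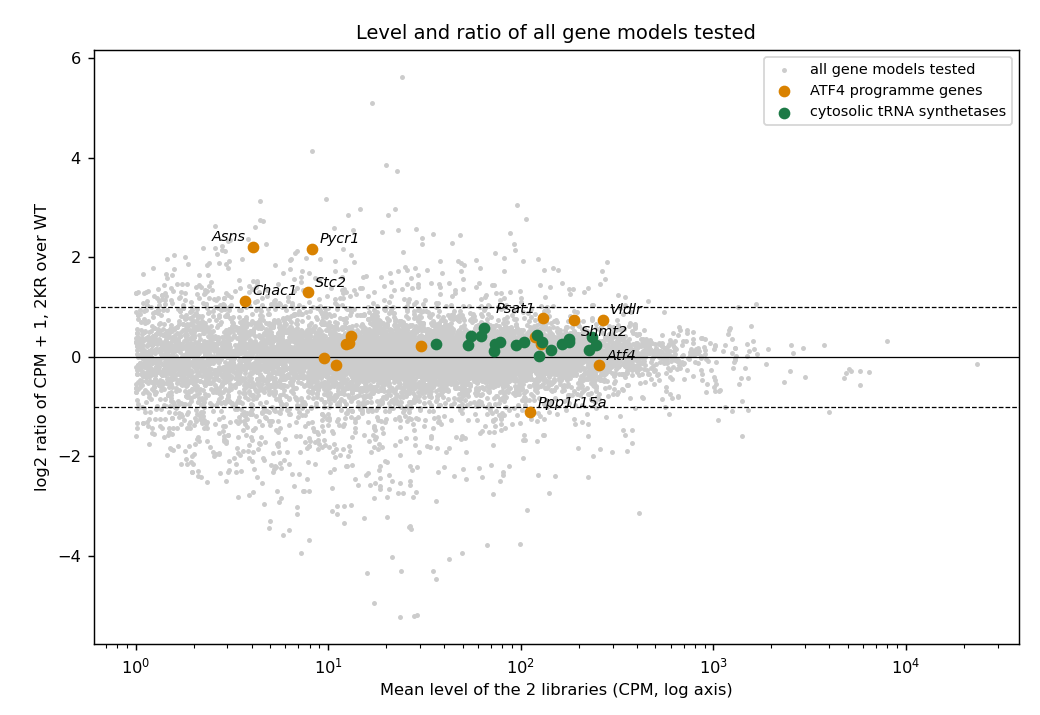
Mean level of the 2 libraries in CPM (log axis) against the log2 ratio of CPM + 1, 2KR over WT, for all 12466 gene models tested (grey), the 17 tested programme genes (orange) and the 20 synthetases (green); dashed lines mark 2-fold and each form has 1 library. Asns and Pycr1 lie at 2.22 and 2.18, Ppp1r15a at -1.12, and the synthetases form a narrow band above 0.

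The cytosolic synthetases were higher in 2KR almost as a block, each by a small amount. All 20 had a fold above 1, from 1.01 to 1.5, and 19 had the counting interval wholly above 1, with Qars the exception. All 20 had a mean of at least 30 CPM, and of the 6581 models at this level 53.8% had a fold above 1 and 38.2% had the interval above 1. The median log2 ratio of the 20 was 0.28 and its quartiles were 0.24 and 0.37, while the models at this level had a median of 0.03 and quartiles of -0.15 and 0.20. None of the 20 reached 2-fold, where 91 of the 6581 models were at least 2-fold higher and 133 lower. Summed, they took 2674.0 CPM in 2KR and 2205.4 in WT, a fold of 1.21 (1.2 to 1.23), or 0.269% of 2KR counts and 0.219% of WT counts.

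Mars (ENSMUSG00000040354, chromosome 10, 127296221 to 127311786), which charges the methionine tRNAs of initiation and elongation, had the largest fold of the 20, with 77.5 CPM in 2KR and 51.5 in WT, 1.5 (1.39 to 1.63). Gars, for glycine, had 140.4 CPM in 2KR and 103.8 in WT, a fold of 1.35 (1.28 to 1.44). Cars, for cysteine, had 63.8 CPM in 2KR and 47.1 in WT, a fold of 1.35 (1.24 to 1.48). The intervals of Gars and Cars overlap that of Mars. Yars, for tyrosine, had 71.0 CPM in 2KR and 52.8 in WT, a fold of 1.34 (1.24 to 1.46). Aars, for alanine, had 266.9 CPM in 2KR and 202.5 in WT, a fold of 1.32 (1.26 to 1.37). Iars, for isoleucine, had 199.6 CPM in 2KR and 154.7 in WT, a fold of 1.29 (1.23 to 1.36). A further 10 lay between 1.18 and 1.24, each with the interval above 1: Tars, Nars, Dars, Lars, Farsa, Kars, Wars, Eprs, Rars and Farsb. Eprs, a single protein that charges both glutamate and proline, had 265.5 CPM in 2KR and 224.3 in WT, a fold of 1.18 (1.14 to 1.23). Kars, for lysine, had 179.6 CPM in 2KR and 149.1 in WT, a fold of 1.2 (1.15 to 1.27). Lars, for leucine, had 86.4 CPM in 2KR and 70.0 in WT, a fold of 1.23 (1.15 to 1.33). The intervals of these 10 overlap one another, so counting error alone leaves their order unresolved. The smallest folds were those of Sars, for serine, Vars, for valine, Hars, for histidine, and Qars, for glutamine. Sars had 151.7 CPM in 2KR and 136.8 in WT, a fold of 1.11 (1.05 to 1.17), and Vars had 237.9 and 216.9 CPM, a fold of 1.10 (1.05 to 1.14). Hars had 75.6 CPM in 2KR and 70.0 in WT, a fold of 1.08 (1.002 to 1.16). Qars had 125.5 CPM in 2KR and 124.5 in WT, a fold of 1.01 (0.952 to 1.07), and its log2 ratio turned to -0.01 when ratios were centred on the median of all models. Nars and Asns both serve asparagine: Nars had 196.0 CPM in 2KR and 158.7 in WT, where the fold of Asns was 9.21.

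Per length, the order of the synthetases was nearly the same in both libraries. Nars was the highest, at 75 FPKM in 2KR and 59.9 in WT, and Kars, the lysyl enzyme, came next at 68.3 and 55.9 FPKM. The lowest in 2KR was Wars, the tryptophanyl enzyme, at 8.26 FPKM, and the lowest in WT was Yars, at 6.68 FPKM. The highest level was 9.08-fold the lowest in 2KR and 8.96-fold in WT, and no gene moved by more than 1 rank of 20. Farsa and Farsb encode the 2 kinds of subunit of one phenylalanyl enzyme. The level of Farsa per length was 0.744 of that of Farsb in 2KR and 0.727 of it in WT, so their ratio to each other was close in the 2 libraries.

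**Figure D4:**
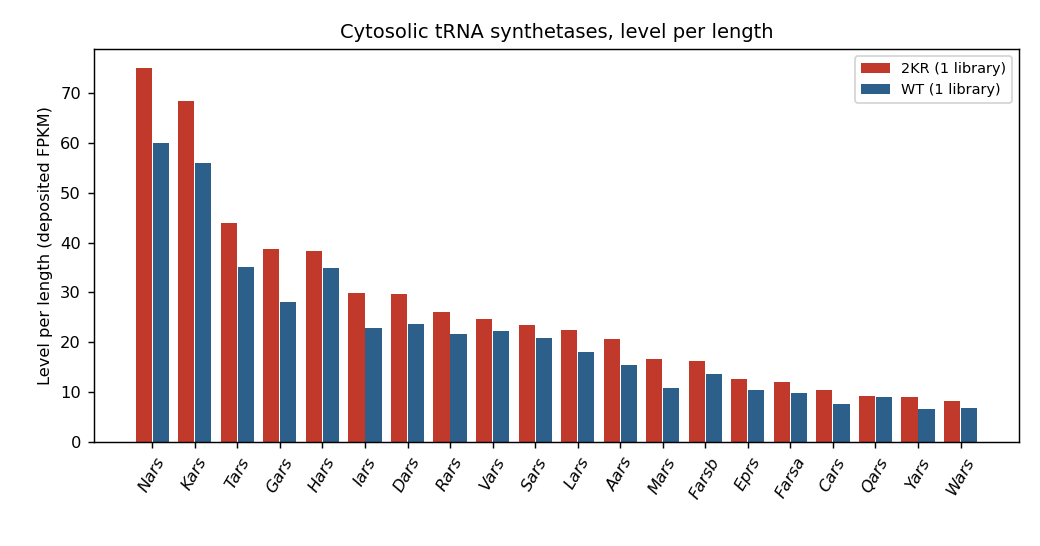
Level per length, as deposited FPKM, of the 20 cytosolic synthetases in the 2KR library (red) and the WT library (blue), ordered by the 2KR level, with 1 library per form. Every red bar is taller than its blue neighbour, from Nars (75 and 59.9) to Wars (8.26 and 6.78), and the gap is smallest for Qars (9.26 and 9.06).

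Split by structure or assembly, the synthetases had nearly the same medians. In animal cells 8 of them sit in one multisynthetase complex (Dars, Eprs, Iars, Kars, Lars, Mars, Qars and Rars), and these had a median log2 ratio of 0.28, as did the 12 outside it. The complex thus held the largest and the smallest fold of the 20, Mars and Qars. The 9 class I enzymes had a median of 0.30 and the 10 class II enzymes 0.28, with the two-domain Eprs left out of both classes. The 3 non-enzymatic scaffolds of the complex had the interval above 1 as well, with folds of 1.52 (1.36 to 1.70) for Aimp1, 1.25 (1.07 to 1.46) for Eef1e1 and 1.15 (1.02 to 1.30) for Aimp2. The 17 synthetases that serve mitochondria alone had a median log2 ratio of 0.08. Of these 17, 4 had the interval above 1, 1 below, and 12 held 1, where all tested models had 31.6% above and 28.5% below. Their sum was 555.7 CPM in 2KR and 533.7 in WT, a fold of 1.04 (1.01 to 1.07), whose interval does not meet that of the cytosolic sum. Wars2 was the only 2-fold difference among the 17, where 7.22% of all tested models differed by as much. It had 164 counts in 2KR and 56 in WT, a fold of 2.48 (1.82 to 3.43). Tars2 had a fold of 1.41 (1.27 to 1.56), Iars2 had 0.981 (0.925 to 1.04), and Lars2 had 0.815 (0.736 to 0.902).

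Upstream of ATF4, none of 15 eIF2 pathway genes outside the 38 differed 2-fold, where 7.22% of all tested models did. Ppp1r15a, which also acts on eIF2 and was 2.19-fold lower in 2KR, is one of the 38 and so not among these 15. The 15 encode the kinases, their regulators, the phosphatase partner Ppp1r15b, eIF2 itself and its exchange factor eIF2B. Of these, 5 had the interval above 1 and 3 below, near the shares of all tested models (31.6% above and 28.5% below). Their median log2 ratio was 0.04. Eif2s2, the beta subunit of eIF2, had the largest fold, 1.47 (1.37 to 1.57), with 119.9 CPM in 2KR and 81.7 in WT. Eif2ak3, which encodes the endoplasmic reticulum kinase PERK, had 41.0 CPM in 2KR and 47.6 in WT, a fold of 0.862 (0.782 to 0.949). Eif2ak4, which encodes the amino acid sensor GCN2, had 57.7 CPM in 2KR and 55.9 in WT, a fold of 1.03 (0.947 to 1.12). Impact, an inhibitor of GCN2, had a fold of 0.836 (0.779 to 0.897).

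Several factors that pair with ATF4 on DNA were far lower in 2KR. Of 7 genes, 6 passed the filter. By the size rule 3 of these were lower and none higher, against 4.56% and 2.66% of all tested models. The 3 were Cebpd, 5.91-fold lower (4.87 to 7.23), Fos, 5.14-fold lower (4.68 to 5.65), and Cebpb, 3.92-fold lower (2.97 to 5.23). In counts these were 124, 545 and 67 in 2KR, against 622, 2378 and 223 in WT. The median log2 ratio of the 6 tested was -1.29, and it was -0.97 with a pseudocount of 5, -0.88 with no filter and -0.42 with a mean of 30 CPM or more required. Jun, the usual partner of Fos, had 74.3 CPM in 2KR and 137.3 in WT. Cebpg, the C/EBP relative known to act with ATF4 on amino acid genes, had 56.5 CPM in 2KR and 51.8 in WT, a fold of 1.09 (1.001 to 1.19). Nfe2l2, the oxidative stress factor NRF2, had a fold of 1.02 (0.980 to 1.07). The mast cell and basophil marker sum given above was lower in 2KR as well, the monocyte list split, and the part of either in these 3 differences was not tested.

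Other known targets of ATF4 lay on both sides of 1. Of 24 such genes outside the 38, 18 passed the filter and 6 did not. The interval lay above 1 for 8 and below 1 for 10. All 8 passed the filter, and of the 10 only Gdf15 did not. All tested models, which all passed it, had 31.6% above and 28.5% below. By the size rule 1 was higher and none lower, against 2.66% and 4.56% of all tested models, and the 18 tested had a median log2 ratio of -0.14. The 1 was Slc1a4, a carrier of serine and alanine, with 21.6 CPM in 2KR and 7.72 in WT, a fold of 2.80 (2.31 to 3.42). Vegfa, the angiogenic growth factor, had 33.5 CPM in 2KR and 61.1 in WT, 1.82-fold lower (1.66 to 2.01), and Got1, the aspartate aminotransferase, was 1.64-fold lower (1.39 to 1.94). Among amino acid carriers, Slc38a2 had a fold of 1.07 (1.04 to 1.10) and Slc7a1 1.48 (1.40 to 1.57), while Slc7a5 and Slc3a2, the 2 chains of the large neutral amino acid carrier, had 0.909 (0.871 to 0.948) and 0.883 (0.854 to 0.913). Slc7a11, the cystine carrier, had 6 counts in 2KR and 0 in WT, and Fgf21 had 0 in both. Gdf15, a secreted stress signal, had 5 counts in 2KR and 15 in WT.

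Genes of the other arms of the unfolded protein response also lay on both sides. Of 12, 6 had the interval below 1 and 2 above, where all tested models had 28.5% below and 31.6% above, with a median log2 ratio of -0.08. Xbp1, the factor spliced by IRE1, had 155.6 CPM in 2KR and 241.5 in WT, 1.55-fold lower (1.48 to 1.63). Edem1, which sends misfolded glycoproteins to degradation, was the only 2-fold difference of the 12, against 7.22% of all tested models. It had 323.2 CPM in 2KR and 123.0 in WT, a fold of 2.63 (2.50 to 2.76). Calr, a calcium-binding chaperone, had a fold of 1.54 (1.52 to 1.57).

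**Figure D5:**
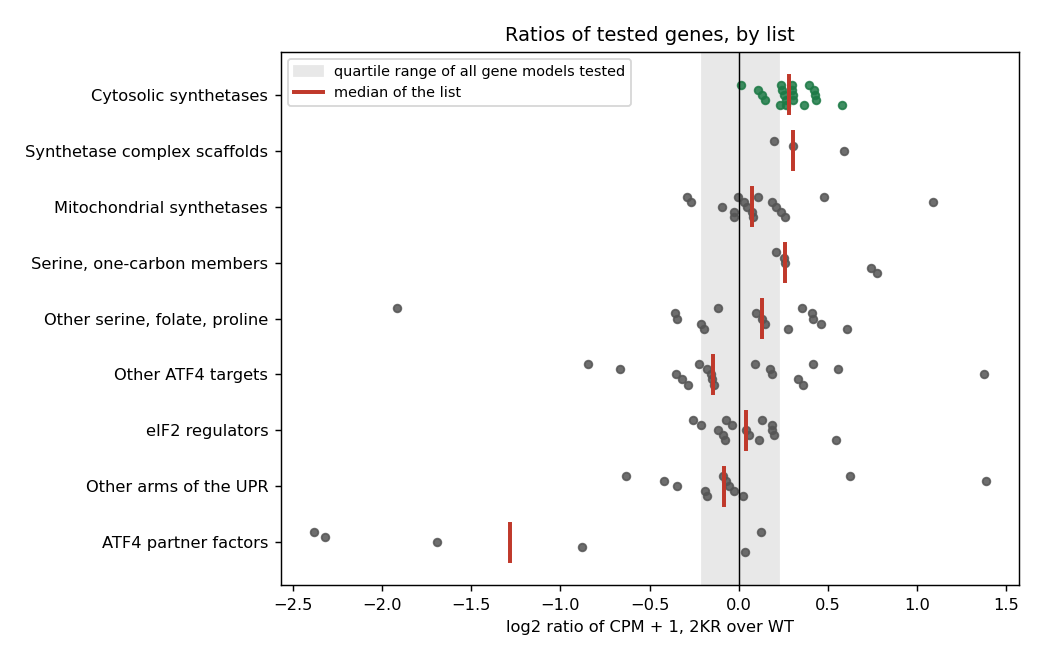
The log2 ratio of CPM + 1, 2KR over WT, of the tested genes in 9 lists, 1 point per gene, with the list median as a red line and the quartile range of all gene models tested in grey; each form has 1 library. The cytosolic synthetases cluster around 0.28, the mitochondrial ones around 0.08, the other ATF4 targets around -0.14, and the ATF4 partner factors reach -2.38.

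The folds were also set beside the promoter core, and any relation between them was not tested. The 38 genes were chosen as ATF4 targets, and the 7 synthetases without a matched promoter are left out here. All 11 tested members with the core had a fold above 1, from 1.24 to 9.21 (Asns), with a median log2 ratio of 0.42. Atf3 also carries the core but lay below the filter. Of 19 tested members whose promoter lacked it, 15 had a fold above 1 and the median was 0.26. Atf4, Atf5, Ddit3 and Ppp1r15a, the 4 members with a fold below 1, all lacked the core in this window. Among the synthetases the 5 with the core (Aars, Gars, Iars, Tars and Yars) had a median of 0.40 and the 8 without it 0.25, although Mars, the highest, had none. Outside the 38 genes, 239 tested models with the core had a median log2 ratio of 0.02 and 8945 without it also had 0.02. Among these 239, 51.5% had a fold above 1, against 52.2% of the 8945.

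The genes around the 5 that differed 2-fold had medians near 0. Within 500 kb of their start sites, the tested neighbours of Pycr1 numbered 37, with a median log2 ratio of 0.02 and 1 of them at 2-fold. Chac1 had 26 neighbours with a median of 0.12 and none at 2-fold, and Stc2 had 4 with a median of -0.07. Asns had 1 tested neighbour, at -0.02. Ppp1r15a had 38, with a median of 0.05, of which 3 were at least 2-fold higher and none lower. Of all tested models, 2.66% were at least 2-fold higher and 4.56% lower. In the deposited coordinates 10 of the 38 genes overlap another gene model, and where counting did not use strand the reads there cannot be told apart. Asns, Pycr1, Chac1 and Stc2 overlap none. Psph overlaps 452 bases of Cct6a, which held 5584 counts in 2KR and 3689 in WT, Atf5 overlaps 512 bases of Il4i1, with 2874 and 1992 counts, and Ddit3 overlaps 68 bases of Mars, so the values of Psph, Atf5 and Ddit3 are uncertain. Hars overlaps 198 bases of Hars2, with 816 and 642 counts, and its interval reached down to 1.002.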

How the data were processed

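HISAT2 2.0.4 and the build GRCm38 are named in the submitters' processing notes. The sources used here do not give how reads were counted, with which annotation and whether by strand. The authors deposited 2 values for each gene model and library, a raw count and its FPKM, per the file headers. The FPKM gave the same gene length in both libraries, within 0.1%, for 15403 of 15403 models with counts in both, so it adds only length and library total. Counts were scaled with TMM in edgeR 4.0.16 (R 4.3.3; factors 1.0070 for 2KR and 0.9931 for WT). Ratios used Python 3.11.15, numpy 2.4.6, pandas 2.3.3 and scipy 1.17.1, and figures matplotlib 3.10.9. The log2 ratio is of CPM + 1, over models whose mean was 1 CPM or more, and ranks are of this log2 ratio. The ratio of counts was given an exact 95% interval by the Clopper-Pearson method; reads without molecular identifiers are not independent molecules. Strand was taken from GENCODE M21, which matched all 38 genes by identifier.

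Every gene of the 38 was named. From each other list the rule took the 3 tested genes whose log2 ratio was largest in size and the gene of highest mean CPM, and from marker lists the 2 most abundant; Pycrl, Jun, Cebpg, Eif2ak4, Slc7a1, Slc7a5, Slc3a2, Slc7a11, Fgf21, Gdf15, Cct6a, Il4i1, Hars2, Mcpt8, Cd68, Ly6c2, Adgre1 and Cd14 were added after their values were seen, and not every gene so taken is printed. Some genes and 1 sequence are not reported here. The genes and lists were chosen with earlier results of these data known. Lists with fewer than 5 genes are given gene by gene. Alternatives were other scalings, with DESeq2 1.42.0 for one, other pseudocounts and filters, and the FPKM. The size rule and intervals were tested on simulated counts that held counting noise alone. That test cannot speak to variation between libraries.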

Additional observations from a re-analysis of the deposited data

How the results depend on the processing

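Of 11 alternatives, 10 were chosen at the start and 1, a mean CPM of 30 or more, after seeing the data. Over 396 values of single members, 390 moved by less than their counting interval and 6 by more. Qars, at 0.01, turned to -0.01 when centred on the median of all models, and no other member changed sign. The 6 are Asns, Pycr1 and Stc2 with a pseudocount of 5 (1.09, 1.38 and 0.86) and on FPKM (1.30, 1.43 and 0.64). The members at least 2-fold higher numbered 2 with the pseudocount 5 and 2 on FPKM (Asns and Pycr1 in both), 2 where the mean CPM was 5 or more (Pycr1 and Stc2) and 0 at 30 CPM, where all 4 fall below the filter; 1 was lower throughout. All models higher and lower numbered 147 and 297 with a pseudocount of 5, 207 and 377 at 5 CPM, 91 and 133 at 30 CPM, and 166 and 282 on FPKM, against 331 and 569. The median log2 ratio of the partner factors was -0.97 with a pseudocount of 5, -0.88 with no filter and -0.42 at 30 CPM, and that of the serine group was 0.50 at 30 CPM. The interval counts were run under the 5 other scalings or centrings only after seeing the data; 30 to 32 members and 18 or 19 synthetases had the interval above 1. The scalings moved the median of all models to between 0.00 and 0.04. Leaving out a library leaves no comparison. No paired analysis was possible because each form has 1 library. Counting error is small for the synthetases and limits Asns, Chac1 and Atf3; variation between cultures was not measured.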
